A study of Mus musculus with 8 samples.

Results

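The matrix metalloproteases (Mmp), the ADAMTS proteases (Adamts) and the tissue inhibitors of metalloproteases (Timp) were described in 8 mouse tumors. Members are the entries of the deposited table whose symbol is Mmp, Adamts or Timp followed directly by digits, with Mmp8 and Mmp9 left out. They are 44 of the table's 25766 entries, namely 21 Mmp, 19 Adamts and 4 Timp genes. The tumors grew from MC38-OVA, a mouse colon adenocarcinoma cell line that carries the model antigen ovalbumin, injected under the skin of female mice. The strain is written C57BL/6J in one label field and C57BL/5J in the treatment protocol. The 4 control tumors carried shNT and the other 4 carried shXBP1, a short hairpin against Xbp1, a gene of the unfolded protein response whose product activates chaperone and secretory genes. Both groups share the ovalbumin-bearing line and the subcutaneous site, which is not the organ of origin, and the labels give no age, no number of hairpins and no word on clones. Whether every tumor had a separate host is not stated, so p-values reflect the variation among these samples, which may be technical. RNA of whole tumors was sequenced, so each library holds RNA of cancer cells and of host cells.

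Matrix metalloproteases are zinc-dependent enzymes, secreted or held at the cell surface, that cut collagens, elastin, proteoglycans and many other proteins. They are made as inactive precursors and are switched on by removal of a propeptide. ADAMTS proteases are related secreted enzymes with thrombospondin repeats, among which are cleavers of proteoglycans, processors of fibrillar procollagens and the protease of von Willebrand factor. TIMPs bind the active site of matrix metalloproteases. In tumors all these families are known to be made by stromal and immune cells as well as by cancer cells.

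Total counts lay between 29070605 and 36012997 per tumor. Xbp1 stood at 97.3, 96.0, 103 and 109 CPM (counts made comparable across library sizes) across the shNT group and at 77.2, 76.0, 73.7 and 56.6 CPM across the shXBP1 group (tumors 1 to 4 in each), lower in every shXBP1 tumor (log2 fold change -0.51, SE 0.10, adjusted p = 0.00255 in edgeR). The label calls the line a colon adenocarcinoma, yet 7 of 8 markers of colon epithelium were under 1 CPM on average in either group, with Cdx2 at 0 counts. The other, Cdh1, supplied most of the sum, with 4.54 to 6.96 CPM among shNT and 7.01 to 9.86 CPM among shXBP1 tumors. Their summed level over 8 genes was 5.74 to 7.97 CPM in shNT and 7.65 to 11.2 CPM in shXBP1 tumors. For the counts of markers that follow, 16.9% of all genes tested rose in edgeR and 13.1% fell. Of 11 fibroblast markers 7 rose and 1 fell, with summed levels of 2038 to 3345 CPM in shNT and 6302 to 8468 CPM in shXBP1 tumors, most of it from Col3a1, which rose, while Col1a1 and Col1a2 did not pass and Postn fell. Of 11 macrophage markers 10 rose, Adgre1, Csf1r and Cd68 among them (736 to 1097 CPM in shNT and 1288 to 2501 CPM in shXBP1 tumors), as did 7 of 9 endothelial markers (61.2 to 83.0 CPM in shNT and 124 to 139.9 CPM in shXBP1 tumors) and all 6 T cell markers (26.6 to 53.4 CPM in shNT and 76.6 to 245 CPM in shXBP1 tumors). Of the 9 neutrophil markers 4 could be tested and 3 rose (6.52 to 11.1 CPM in shNT and 25.1 to 31.7 CPM in shXBP1 tumors), while Ly6g, the defining surface marker, had 0 counts in shNT tumors and 11 counts in all in shXBP1 tumors. Among pericyte and smooth muscle markers Acta2 rose and Tagln fell (168 to 173 CPM in shNT and 224 to 248 CPM in shXBP1 tumors over 6 genes). Among 5 keratinocyte markers 2 could be tested and Krt14, which makes up nearly all of the sum, fell. That sum was 148 to 210.1 CPM for the shNT group against 49.9 to 55.4 CPM for the shXBP1 group. Krt10 did not pass (means of 1.90 and 2.02 CPM by group, edgeR, adjusted p = 0.835). Krt5, Krt1 and Dsg3 were below the filter, with shNT means of 0.0234, 0 and 0 CPM. Their shXBP1 means were 1.12, 0.177 and 0.113 CPM. The sum thus describes Krt14, and whether keratinocytes differed was not tested. Markers of skeletal muscle summed to 10.1 to 35.4 CPM in shNT and 14.1 to 55.1 CPM in shXBP1 tumors over 5 genes, and those of adipocytes to 0.589 to 1.06 CPM in shNT and 0 to 1.82 CPM in shXBP1 tumors over 4 genes. Ptprc, the pan-leukocyte gene, stood at 59.4, 42.6, 66.5 and 56.4 CPM across the shNT group and at 156, 193, 171 and 94.8 CPM across the shXBP1 group. The part of these cell types in the results on metalloproteases was not tested, and in bulk tumors fewer cells of a type and less RNA per cell cannot be told apart.

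**Figure D1:**
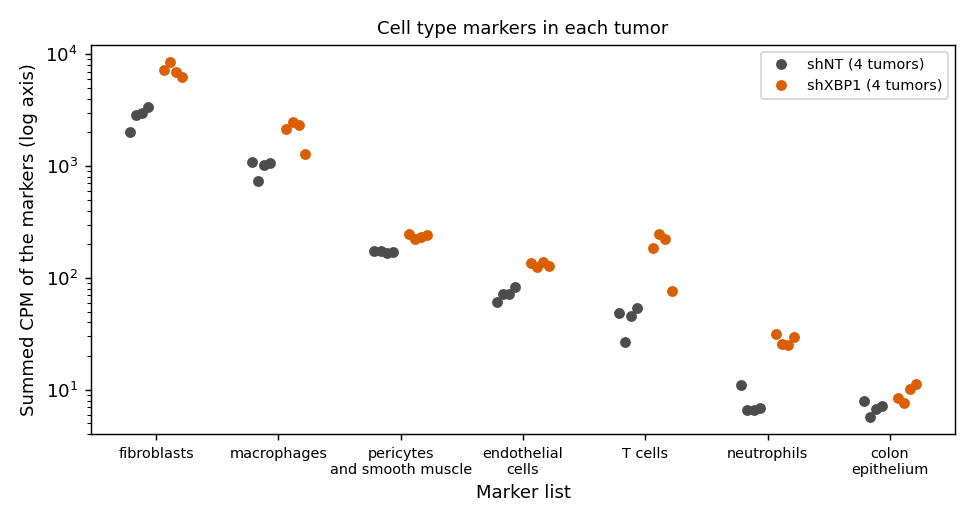
Summed CPM (log axis) of the fixed marker lists of 7 cell types, with 1 point per tumor, in shNT (grey) and shXBP1 (orange) tumors. The sums for fibroblasts, macrophages, pericytes and smooth muscle, endothelial cells, T cells and neutrophils do not overlap between the groups, and those of colon epithelium do.

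Mmp2, Mmp14, Mmp19 and Mmp25 rose in shXBP1 tumors together with Adamts1, Adamts4, Adamts5, Adamts7 and Adamts10, while Adamts8, Mmp11 and Mmp13 fell and no TIMP passed the test. Of the 44 members 28 had enough counts to be tested. In the quasi-likelihood test of edgeR, at an adjusted p below 0.05 over all genes tested, 9 members rose, 3 fell and 16 did not pass. That is 42.9% of the tested members, where 30.0% of all 14907 genes tested were called. The 9 that rose are 32.1% of the tested members, beside 16.9% of all genes, and the 3 that fell are 10.7%, beside 13.1%. The median log2 fold change was 0.29 over the tested members and -0.01 over all genes. By family 4 Mmp genes rose and 2 fell among 13 tested, 5 Adamts genes rose and 1 fell among 12, and 0 of 3 Timp genes were called by edgeR, with 1 (Timp2) at an unadjusted p under 0.05, 1 called by DESeq2 and 1 by limma voom. The CPM of the groups did not overlap for 11 of the 28 members, 39.3%, beside 30.2% of all genes. Within the shXBP1 group tumor 4 held the highest value for 12 of the 28 members and tumor 3 the lowest for 12, and shNT tumor 1 was lowest of its group for 16. When Ptprc (on a log2 CPM scale), which moves with the groups, was added to the model, edgeR called 2 members higher (Adamts1 and Adamts7) and 0 lower. Before adjustment 10 were higher and 1 lower. Over all 14907 genes that model called 134 higher and 106 lower, against 2517 and 1958 without Ptprc. The median log2 fold change of the tested members was then 0.56, and the cause was not tested. Without shXBP1 tumor 2, or without shXBP1 tumor 3, only Adamts8 was called lower.

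**Figure D2:**
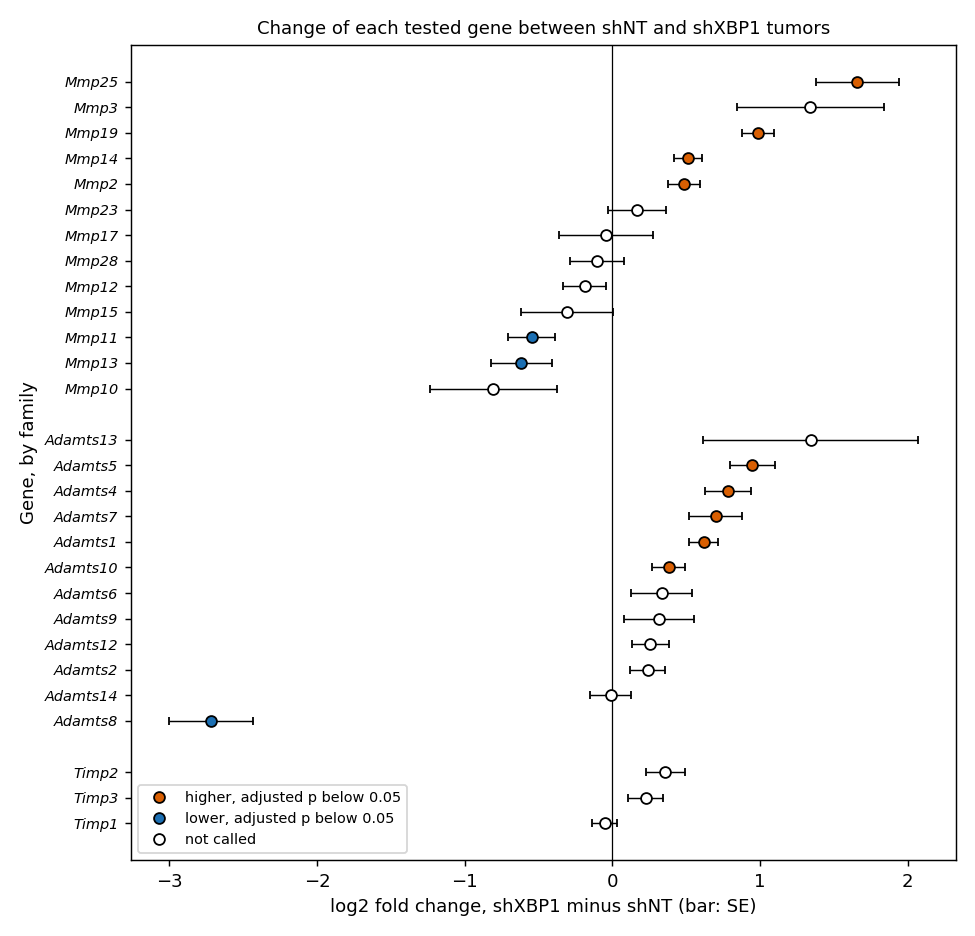
The log2 fold change (shXBP1 minus shNT) of each of the 28 tested members with its SE, by family, filled where the adjusted p is below 0.05. The 9 members that rose lie between 0.38 and 1.66, and Adamts8 stands apart at -2.72.

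Per length, the tumors made mostly a few of these genes. Levels of different genes are given as FPKM, the authors' values scaled by gene length and library size. Timp2 was highest (269 ± 48.2 and 347 ± 43.1 FPKM in shNT and shXBP1 tumors, SD, n = 4 each), followed by Mmp2 (138 ± 16.7 and 193 ± 29.8 FPKM) and Timp1 (154 ± 11.2 and 149 ± 7.82 FPKM). The ranges of Mmp2 and Timp1 overlapped in shNT tumors and did not in shXBP1 tumors, where Mmp2 was above Timp1 in each. Mmp14 (67.9 ± 5.35 and 96.7 ± 13.7 FPKM) and Timp3 (62.9 ± 8.75 and 73.4 ± 8.49 FPKM) came next, with ranges that overlapped in both groups, and then Mmp12 (25.9 ± 3.25 and 22.9 ± 4.70 FPKM) and Mmp11 (24.2 ± 2.98 and 16.3 ± 5.31 FPKM). In all 7 members had a mean of at least 10 FPKM, 13 lay from 1 to 10 FPKM, 18 were under 1 FPKM, and 6 had no count in any tumor. The highest Adamts genes were Adamts10 (6.36 ± 1.19 and 8.25 ± 0.662 FPKM), Adamts14 (6.92 ± 1.77 and 6.86 ± 0.965 FPKM) and Adamts2 (5.90 ± 1.001 and 6.99 ± 0.973 FPKM). Over all Mmp members the summed FPKM was 255, 299.6, 273 and 308 across the shNT group against 383, 322, 308 and 429.8 across the shXBP1 group, and the ranges overlapped by less than 1 FPKM. Mmp2 supplied 46.1 to 49.99% of that sum in shNT and 53.2 to 53.9% in shXBP1 tumors. The summed FPKM of the TIMPs was 455, 484, 451 and 555 across the shNT group against 626, 517, 552 and 583 across the shXBP1 group, and its ratio to the Mmp sum was 1.78, 1.62, 1.65 and 1.80 against 1.63, 1.61, 1.79 and 1.36. The ratios overlapped, with shXBP1 tumor 4 the lowest of all. These sums describe RNA, not enzyme, and were not tested.

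**Figure D3:**
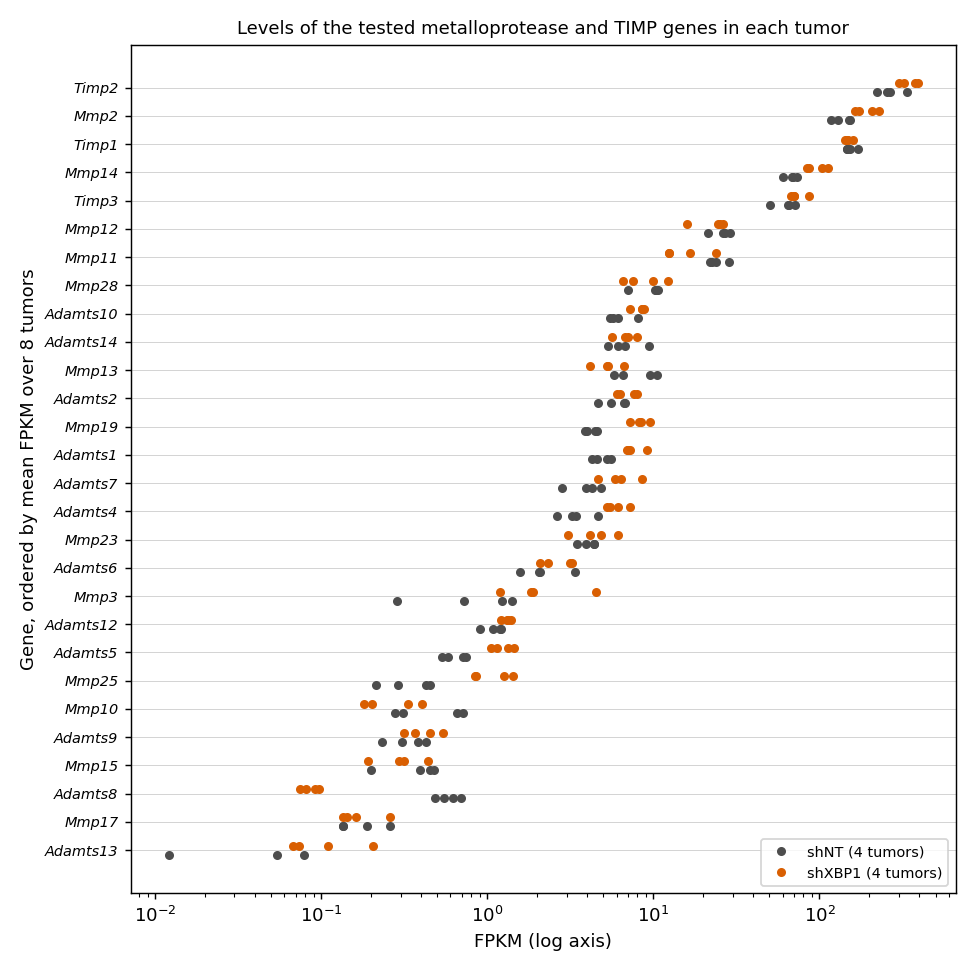
FPKM (log axis) of the 28 tested members in each of 8 tumors, ordered by their mean, with shNT in grey and shXBP1 in orange. Timp2, Mmp2, Timp1, Mmp14 and Timp3 head the order and Adamts13 ends it; its value of 0 in shNT tumor 2 is not drawn.

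Mmp2 and Mmp14, which work as a pair, both rose. Mmp14 is the membrane-bound protease that activates the precursor of Mmp2, a cleaver of gelatin and basement membrane collagen, in a complex bridged by Timp2. Mmp2 (ENSMUSG00000031740, chromosome 8, 92827291 to 92853420, plus strand; coordinates are of GRCm38, from GENCODE M21) stood at 414, 498, 456 and 542 CPM across the shNT group (tumors 1 to 4) and 729, 622, 576 and 744 CPM across the shXBP1 group. Each shXBP1 tumor was above every shNT tumor, a 1.40-fold difference (log2 fold change 0.48, SE 0.11, adjusted p = 0.00577). Mmp14 (ENSMUSG00000000957, chromosome 14, 54431612 to 54445364, plus strand) was at 178, 189, 201 and 217 CPM across the shNT group (tumors 1 to 4) and 308, 252, 255 and 306 CPM across the shXBP1 group. The groups did not overlap, and the level was 1.43-fold higher (log2 fold change 0.51, SE 0.10, adjusted p = 0.00191). Timp2, the bridging inhibitor (ENSMUSG00000017466, chromosome 11, 118301069 to 118355740, minus strand), was at 939.9, 1066, 1082 and 1440.3 CPM across the shNT group (tumors 1 to 4) and 1679, 1304, 1361 and 1466 CPM across the shXBP1 group. Here the groups overlapped, since shNT tumor 4 lay above shXBP1 tumors 2 and 3, and the difference did not pass (log2 fold change 0.36, SE 0.13, adjusted p = 0.0537). Timp2 passed without shNT tumor 4 (log2 fold change 0.50, adjusted p = 0.00813) and without shXBP1 tumor 2 (adjusted p = 0.0474), as it did in DESeq2 (adjusted p = 0.0256), limma voom (0.0462), without a filter (0.0455) and when 1 CPM was required in at least 4 libraries (0.0444). The authors' deposited table gives log2 fold changes of 0.48 for Mmp2, 0.51 for Mmp14 and 0.35 for Timp2. The adjusted p of the authors' DESeq2 test was 1.26e-04, 4.98e-06 and 0.0205 in that order, so Timp2 passed there.

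**Figure D4:**
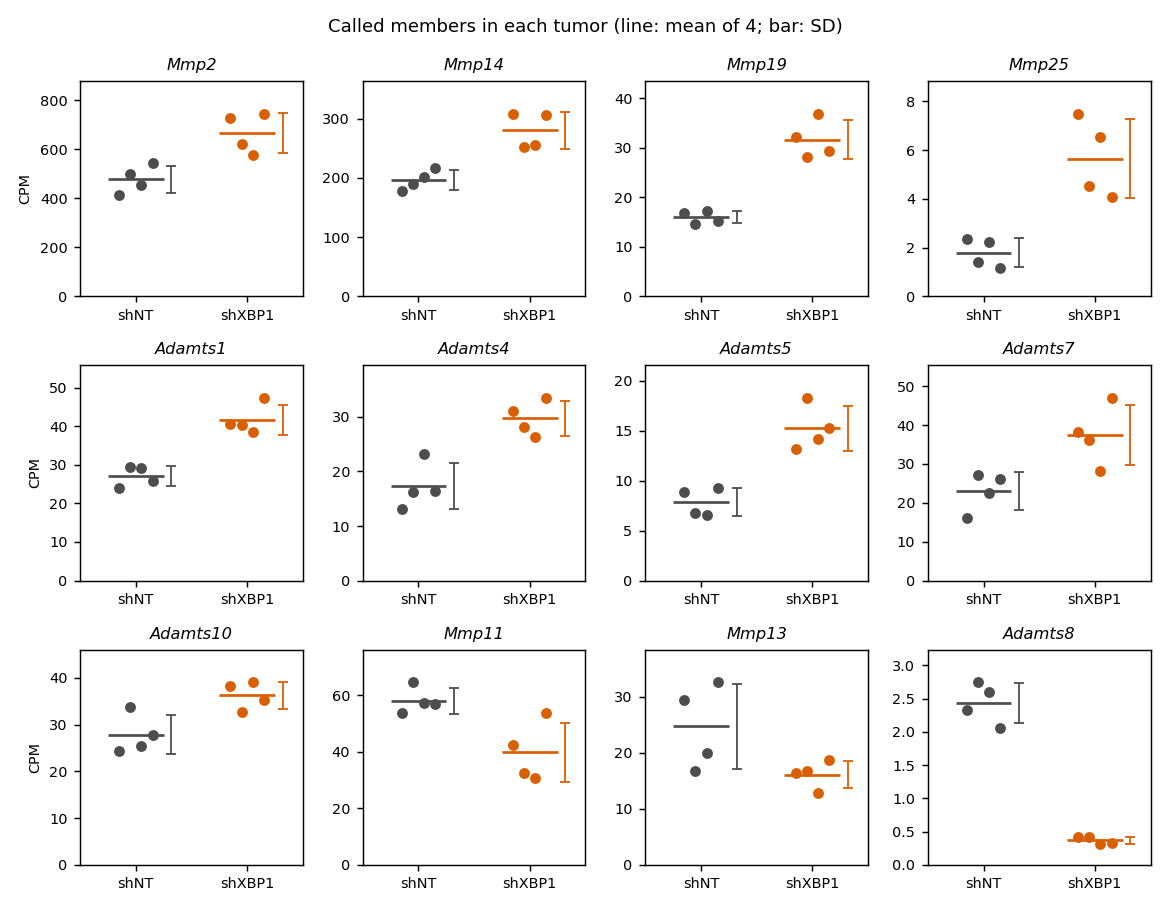
CPM of the 12 called members in each tumor (points), with the mean of 4 tumors (line) and the SD (bar), for shNT (grey) and shXBP1 (orange); each axis starts at 0. The groups are apart for 10 of the 12 genes and overlap for Adamts10, by a single shNT tumor, and for Mmp13, where shNT tumor 2 lies below shXBP1 tumor 4.

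Other members held at the cell surface differed from each other. Mmp25, anchored by a glycolipid and known from leukocytes (ENSMUSG00000023903, chromosome 17, 23628311 to 23645277, minus strand), stood at 2.36, 1.42, 2.22 and 1.15 CPM across the shNT group (tumors 1 to 4) and 7.49, 4.53, 6.53 and 4.07 CPM across the shXBP1 group. Every shXBP1 tumor was higher than every shNT tumor, and the rise was 3.16-fold (log2 fold change 1.66, SE 0.28, adjusted p = 0.00107), the largest among the Mmp genes that were called. Neutrophil markers stood higher in the same tumors (summed CPM above), with Csf3r the highest of them (4.34 ± 1.28 and 17.2 ± 3.43 CPM, a log2 change of 1.99, SE 0.21, adjusted p = 5.94e-05), S100a8 and S100a9 at a few CPM and Ly6g near 0, and their part in the result was not tested. Mmp17, also glycolipid-anchored, was at 1.32 ± 0.418 and 1.27 ± 0.354 CPM (edgeR, adjusted p = 0.935). Mmp15, a transmembrane relative of Mmp14, was at 2.22 ± 0.706 and 1.79 ± 0.503 CPM (SD, n = 4 each, with an adjusted p of 0.494 in edgeR). Mmp24, another, had 15 counts over the shNT and 13 over the shXBP1 tumors and was below the filter. Mmp16 had no count, and 3 counts per library, which is 0.0833 to 0.103 CPM, is the level such a zero allows. Mmp23, whose precursor is an integral membrane protein, did not pass (6.57 ± 0.678 and 7.39 ± 2.08 CPM, adjusted p = 0.563).

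Among the secreted enzymes outside the chromosome 9 block, Mmp19 rose and Mmp11 fell. Mmp19, which cleaves basement membrane proteins (ENSMUSG00000025355, chromosome 10, 128790910 to 128800824, plus strand), was at 16.7, 14.6, 17.2 and 15.3 CPM across the shNT group (tumors 1 to 4) and 32.2, 28.1, 36.8 and 29.4 CPM across the shXBP1 group. The groups were far apart, with the lowest shXBP1 tumor 28.1 and the highest shNT tumor 17.2 CPM, and the level was 1.98-fold higher (log2 fold change 0.99, SE 0.11, adjusted p = 6.38e-05). Exons of Tmem198b on the other strand share 22.3% of the exon bases of Mmp19, and no source states whether counting used strand. Tmem198b itself, named for that overlap, was 25.5 CPM on average and had a log2 fold change of -0.23 (edgeR, adjusted p = 0.134). Mmp11, the stromelysin that furin activates inside the cell (ENSMUSG00000000901, chromosome 10, 75923222 to 75936496, minus strand), was at 53.6, 64.5, 57.4 and 56.9 CPM across the shNT group (tumors 1 to 4) and 42.3, 32.5, 30.7 and 53.6 CPM across the shXBP1 group. The groups touched without overlapping, since shXBP1 tumor 4 lay just under shNT tumor 1, and the level was 1.46-fold lower (log2 fold change -0.55, SE 0.16, adjusted p = 0.0223). The adjusted p rose above 0.05 on leaving out shNT tumor 2 (0.0625) or 3 (0.0564), or shXBP1 tumor 2 (0.0624) or 3 (0.0538). With the Ptprc covariate its sign turned (log2 fold change 0.32, adjusted p = 0.495). Chchd10, which shares 5.58% of its exon bases on the other strand, was 1.93 CPM on average and rose (log2 fold change 1.34, edgeR, adjusted p = 0.00446). Mmp28, an epithelial enzyme also activated by furin, did not pass (35.5 ± 6.10 and 33.0 ± 8.41 CPM, adjusted p = 0.710), and furin's own gene did not either (139 ± 10.9 and 156 ± 25.4 CPM, a log2 change of 0.17, SE 0.11, adjusted p = 0.276). Mmp21 had 6 counts in shNT and 0 in shXBP1 tumors.

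A block of 9 Mmp members lies on chromosome 9 where the first and the last start are 419.6 kb apart, and its genes differed widely in level. In order along the chromosome they are Mmp13, Mmp12, Mmp1b, Mmp3, Mmp1a, Mmp10, Mmp27, Mmp20 and Mmp7. Promoters of these genes are textbook carriers of an AP-1 site, bound by Fos and Jun proteins, near a TATA box. RefSeq promoter windows (GRCm38.p6, 250 bases before to 50 after a start) were found for 31 of the 44 members. Of the called members, 3 that rose (Adamts1, Mmp14 and Mmp25) and 2 that fell (Mmp11 and Mmp13) had a window. Members without a window, Mmp2 and Adamts8 among them, were not searched. The AP-1 motif TGANTCA, the same on both strands, lay in windows of 8 members, all in this block, and in 0 of the 22 members outside it that had a window. Of all 32851 promoter windows 7.81% held it, and of all 27025 genes with a window 8.97% did. The TATA letters TATAAA, searched on both strands, lay in windows of 10 members, among them the same 8. They were in 13.6% of all windows and 15.7% of all genes with a window. The 100 bases before a RefSeq start are shown for the 4 block genes that were tested and for 2 that had no count. Where a gene had a second window, the window with AP-1 letters was taken. The genes shown lie on the plus strand, and AP-1 and TATA letters are in capitals.
Mmp13 (chr9:7272414-7272513): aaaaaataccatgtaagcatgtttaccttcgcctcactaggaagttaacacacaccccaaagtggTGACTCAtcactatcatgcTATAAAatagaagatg
Mmp12 (chr9:7347274-7347373): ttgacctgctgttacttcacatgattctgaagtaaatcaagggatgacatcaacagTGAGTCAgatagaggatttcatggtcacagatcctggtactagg
Mmp3 (chr9:7445722-7445821): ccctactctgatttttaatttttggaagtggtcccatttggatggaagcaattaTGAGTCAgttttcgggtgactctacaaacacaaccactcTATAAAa
Mmp10 (chr9:7502242-7502341): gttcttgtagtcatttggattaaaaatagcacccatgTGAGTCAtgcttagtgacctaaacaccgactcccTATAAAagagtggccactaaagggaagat
Mmp1a (chr9:7464041-7464140): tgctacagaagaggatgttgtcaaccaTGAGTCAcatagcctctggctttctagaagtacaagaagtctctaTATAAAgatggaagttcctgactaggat
Mmp7 (chr9:7691990-7692089): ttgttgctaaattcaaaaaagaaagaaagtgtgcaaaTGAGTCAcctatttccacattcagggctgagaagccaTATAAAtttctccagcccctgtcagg
The AP-1 letters begin 35 bases before the start in Mmp13, 44 in Mmp12, 46 in Mmp3, 63 in Mmp10, 73 in Mmp1a and 63 in Mmp7. Mmp12 has a second RefSeq window further upstream and Mmp7 has a second further downstream, both without the AP-1 motif. The TATA letters of Mmp12 lie just after the start shown. A match is a description of the letters, and binding was not measured.

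Genes with these letters ranged from 25.9 FPKM to 0 in the same shNT tumors, and the 4 tested were not all of one sign. Mmp12, the macrophage elastase (ENSMUSG00000049723, chromosome 9, 7344381 to 7369499, plus strand), was at 105 ± 13.4 and 92.6 ± 18.3 CPM (SD, n = 4 each) and did not pass (log2 fold change -0.19, SE 0.14, adjusted p = 0.365). Without shXBP1 tumor 3, its lowest library, the log2 fold change was -0.05 (adjusted p = 0.773). In the same tumors 10 of 11 macrophage markers rose, and the part of macrophages in the level of Mmp12 was not tested. Mmp13, a collagenase that cuts fibrillar collagen (ENSMUSG00000050578, chromosome 9, 7272514 to 7283331, plus strand), was at 29.5, 16.8, 19.96 and 32.6 CPM across the shNT group (tumors 1 to 4) and 16.3, 16.7, 12.7 and 18.7 CPM across the shXBP1 group. It was 1.53-fold lower (log2 fold change -0.62, SE 0.20, adjusted p = 0.0419), with shNT tumor 2 inside the shXBP1 range and the spread of the shNT group wide. The adjusted p rose above 0.05 on leaving out shNT tumor 1 (0.114) or 4 (0.106), or shXBP1 tumor 1 (0.0896), 2 (0.0916) or 3 (0.107), and also in limma voom (0.0657) and without a filter (0.0696). Mmp3, the stromelysin that cuts proteoglycans and activates other precursors (ENSMUSG00000043613, chromosome 9, 7445822 to 7455975, plus strand), was at 0.599, 1.42, 2.53 and 2.93 CPM across the shNT group (tumors 1 to 4) and 2.49, 4.02, 3.78 and 8.60 CPM across the shXBP1 group. Its values varied several-fold within each group, shNT tumors 3 and 4 lay above the lowest shXBP1 tumor, and the difference did not pass (log2 fold change 1.34, SE 0.50, adjusted p = 0.0681). It passed without shNT tumor 4 (adjusted p = 0.0494), without shXBP1 tumor 1 (0.0494), in DESeq2 (0.0125) and in the authors' deposited DESeq2 test (0.0119). Mmp10, the second stromelysin (ENSMUSG00000047562, chromosome 9, 7502352 to 7510240, plus strand), was at most 1.42 CPM in any tumor and had the opposite sign without passing (0.974 ± 0.455 and 0.554 ± 0.187 CPM by group, log2 fold change -0.81, SE 0.43, adjusted p = 0.181). Mmp27 had 30 counts in shNT and 42 in shXBP1 tumors, Mmp1b had 2 and 0, and Mmp1a, Mmp7 and Mmp20 had none. Mmp1a and Mmp1b are near copies among which reads can be split, and Mmp1b shares exon bases with Mmp12 on the other strand.

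**Figure D5:**
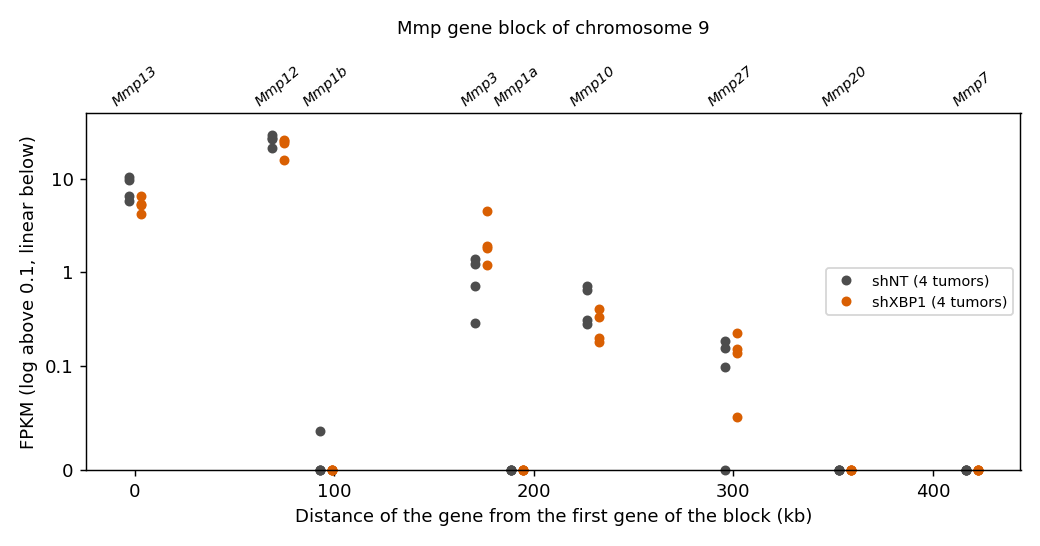
FPKM of the 9 Mmp genes of the chromosome 9 block in each tumor, placed by their distance in kb from the first gene, Mmp13 (the vertical axis is logarithmic above 0.1 FPKM and linear below). Mmp12 and Mmp13 are the highest, while Mmp1a, Mmp20 and Mmp7 lie at 0 in every tumor.

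AP-1, ETS and RUNX proteins are the textbook regulators of such promoters. The list of 15 genes holds these families and Cebpb, which belongs to none of them. In it 6 rose, 2 fell and 7, Cebpb among them, did not pass, where 16.9% of all genes tested rose and 13.1% fell. The 4 with the smallest p were Etv4 (79.6 ± 1.58 and 41.2 ± 6.32 CPM, a log2 change of -0.95, SE 0.10, adjusted p = 6.55e-05), Fos (8.68 ± 2.53 and 26.8 ± 2.54 CPM, a log2 change of 1.63, SE 0.18, adjusted p = 8.39e-05), Fosl2 (86.2 ± 4.88 and 115 ± 7.53 CPM, a log2 change of 0.41, SE 0.08, adjusted p = 0.00193) and Etv5 (66.3 ± 6.94 and 45.5 ± 5.18 CPM, a log2 change of -0.54, SE 0.10, adjusted p = 0.00206), where Fos and Fosl2 are AP-1 subunits and Etv4 and Etv5 are ETS factors. The median log2 fold change of the list was 0.15.

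Of the ADAMTS proteases known to cut proteoglycans such as versican and aggrecan, Adamts1, Adamts4 and Adamts5 rose and Adamts8 fell. Adamts1 (ENSMUSG00000022893, chromosome 16, 85793827 to 85803113, minus strand) was at 24.0, 29.4, 29.1 and 25.9 CPM across the shNT group (tumors 1 to 4) and 40.6, 40.3, 38.5 and 47.2 CPM across the shXBP1 group. The groups did not overlap, and it was 1.54-fold higher (log2 fold change 0.62, SE 0.10, adjusted p = 6.81e-04). Adamts5, its neighbour on chromosome 16 at a distance of 53.1 kb (ENSMUSG00000022894, chromosome 16, 85856173 to 85901828, minus strand), was at 8.86, 6.81, 6.58 and 9.26 CPM across the shNT group (tumors 1 to 4) and 13.1, 18.3, 14.2 and 15.3 CPM across the shXBP1 group. It was 1.93-fold higher, again with no overlap (log2 fold change 0.95, SE 0.15, adjusted p = 8.19e-04). Adamts4 (ENSMUSG00000006403, chromosome 1, 171250421 to 171260637, plus strand) stood at 13.2, 16.2, 23.2 and 16.4 CPM across the shNT group (tumors 1 to 4) and 31.1, 28.1, 26.2 and 33.4 CPM across the shXBP1 group, and each shXBP1 tumor was above each shNT tumor. It was 1.72-fold higher (log2 fold change 0.78, SE 0.15, adjusted p = 0.00257), and Adamts4 with Adamts5 are the enzymes best known for cutting aggrecan in cartilage. Aggrecan RNA (Acan) had no count here, while versican (Vcan), a substrate of Adamts1, Adamts4 and Adamts5, rose (329 ± 19.4 and 441 ± 53.4 CPM, a log2 change of 0.42, SE 0.10, adjusted p = 0.00590). Adamts9, the conserved member found in many tissues, did not pass (3.06 ± 0.707 and 3.81 ± 0.925 CPM, adjusted p = 0.347). Adamts20 had 2 counts in shNT tumors and none in shXBP1 tumors.

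Adamts8, which is grouped with these proteoglycan cleavers (ENSMUSG00000031994, chromosome 9, 30942562 to 30963838, plus strand), was at 2.33, 2.74, 2.60 and 2.06 CPM across the shNT group (tumors 1 to 4) and 0.414, 0.418, 0.318 and 0.321 CPM across the shXBP1 group. The highest shXBP1 tumor was far below the lowest shNT tumor (0.418 against 2.06 CPM), and the level was 6.58-fold lower (log2 fold change -2.72, SE 0.29, adjusted p = 4.97e-05), the largest change among the tested members in size. In counts it stood at 74, 87, 75 and 66 across the shNT group and at 13, 13, 11 and 12 across the shXBP1 group, so it was a low gene in either. Exons of Gm29724 on the other strand share 10.6% of its exon bases. The authors' deposited table gives a log2 fold change of -2.28. Leaving out any 1 tumor gave values from -2.79 to -2.65, and with the Ptprc covariate it was -2.83 but the test did not pass (adjusted p = 0.0877). Adamts15, the neighbour 20.1 kb away on the other strand, was below the filter with 13 counts over the shNT and 46 over the shXBP1 tumors. Of these 46 counts 25 were in shXBP1 tumor 4.

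The remaining ADAMTS genes were grouped by substrate. Adamts7 and Adamts12, a pair known to cut cartilage oligomeric matrix protein, gave values on the same side of 0, and Adamts7 passed. Adamts7 (ENSMUSG00000032363, chromosome 9, 90163069 to 90208071, plus strand) was at 16.2, 27.3, 22.6 and 26.1 CPM across the shNT group (tumors 1 to 4) and 38.2, 36.2, 28.3 and 46.9 CPM across the shXBP1 group. The lowest shXBP1 tumor lay just above the highest shNT tumor, and the level was 1.62-fold higher (log2 fold change 0.70, SE 0.18, adjusted p = 0.0136). Adamts12 did not overlap between groups (8.89 to 11.7 CPM and 11.8 to 13.9 CPM) but did not pass (log2 fold change 0.26, SE 0.13, adjusted p = 0.148). Adamts10, a protein of fibrillin microfibrils (ENSMUSG00000024299, chromosome 17, 33524204 to 33553782, plus strand), was at 24.3, 33.8, 25.5 and 27.8 CPM across the shNT group (tumors 1 to 4) and 38.2, 32.7, 39.0 and 35.2 CPM across the shXBP1 group. It was 1.30-fold higher (log2 fold change 0.38, SE 0.11, adjusted p = 0.0212), and shNT tumor 2 lay within the shXBP1 range. Its adjusted p rose above 0.05 on leaving out shNT tumor 1 (0.0581) or 3 (0.0579), or shXBP1 tumor 1 (0.0600) or 3 (0.0662). Its close relative Adamts6 did not pass (17.9 ± 5.74 and 22.6 ± 4.32 CPM by group, log2 fold change 0.33, SE 0.21, adjusted p = 0.253), except without shNT tumor 2 (log2 fold change 0.58, adjusted p = 0.0208).

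The procollagen N-proteinases Adamts2, Adamts3 and Adamts14, which trim fibrillar procollagens, gave no call. Adamts2 was at 48.5 ± 7.67 and 57.3 ± 6.53 CPM (SD, n = 4 each; log2 fold change 0.24, SE 0.12, adjusted p = 0.153). Adamts14 was at 40.4 ± 8.95 and 40.1 ± 4.10 CPM by group (log2 fold change -0.01, SE 0.14, adjusted p = 0.962). Adamts3 had 8 counts in shNT and none in shXBP1 tumors. Their substrate Col3a1 rose in the same tumors (1579.6 ± 413 and 5165 ± 704 CPM, a log2 change of 1.71, SE 0.19, adjusted p = 1.32e-04), while Col1a1 did not pass (142 ± 37.8 and 148 ± 50.7 CPM, a log2 change of 0.05, SE 0.28, adjusted p = 0.911). Adamts13, the von Willebrand factor protease, had 24 counts over the shNT and 66 over the shXBP1 tumors and passed the filter through the shXBP1 group, where 4 libraries met it against 1 in shNT, so a difference in this direction was favoured by the filter (log2 fold change 1.34, SE 0.73, adjusted p = 0.187). Adamts16 had 34 and 10 counts, Adamts17 had 2 and 0, and Adamts18 and Adamts19 had none.

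No TIMP passed in the test of edgeR, and in each of the 8 tumors Timp2 had the highest FPKM, Timp1 the next and Timp3 the lowest of these 3. Timp1, a secreted inhibitor induced by many cytokines (ENSMUSG00000001131, chromosome X, 20870166 to 20874735, plus strand), was at 169, 138, 144 and 154 CPM across the shNT group (tumors 1 to 4) and 148, 148, 158 and 130.4 CPM across the shXBP1 group. The groups overlapped, and the difference did not pass (log2 fold change -0.05, SE 0.09, adjusted p = 0.691). Its RefSeq promoter window holds TGACGTGG, the core of the element that XBP1 is known to bind in stress genes, and Xbp1 is the gene targeted here. The 100 bases before its start are shown with these letters in capitals.
Timp1 (chrX:20870066-20870165, plus strand): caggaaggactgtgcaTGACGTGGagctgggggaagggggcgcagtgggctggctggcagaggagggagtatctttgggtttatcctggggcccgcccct
The letters, searched on both strands, begin 84 bases before the start. They lay in 0.676% of all windows, in 0.714% of all genes with a window, and in 2 members (Timp1 and Adamts3). The longer ER stress response element, CCAAT and CCACG with a gap of 9 bases, was in 0.119% of windows and 0.137% of genes. None of the 31 members with a window held it, and most called members had no window. Timp3, the inhibitor that binds to the matrix (ENSMUSG00000020044, chromosome 10, 86300372 to 86349506, plus strand), was at 349, 363, 272 and 358 CPM across the shNT group (tumors 1 to 4) and 469, 387, 379 and 336 CPM across the shXBP1 group. Only shXBP1 tumor 4 lay inside the shNT range, and the difference did not pass (log2 fold change 0.23, SE 0.12, adjusted p = 0.169). Exons of Syn3 on the other strand, which had no count, share 21.3% of its exon bases. Timp4 had 4 counts in 1 shNT tumor and none elsewhere. Of the summed TIMP FPKM, Timp2 made up 48.5 to 60.5% in shNT and 58.1 to 64.1% in shXBP1 tumors.

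Among genes that switch on, block or clear these enzymes, Serpine2, Reck and Plau rose. Of 13 tested activators, inhibitors and receptors of pericellular proteolysis 3 rose and 0 fell in edgeR (16.9% and 13.1% of all genes), with 0 lower at an unadjusted p under 0.05, 0 in DESeq2 and 0 in limma voom, and the median log2 fold change was 0.13. The number that fell was 1 without shXBP1 tumor 4, and the number that rose was 2 without shXBP1 tumor 2, where leaving out other tumors gave 3 or 4. The 4 with the smallest p were Serpine2, a serine protease inhibitor (5.05 ± 2.22 and 16.3 ± 3.08 CPM, a log2 change of 1.68, SE 0.30, adjusted p = 0.00227), Reck, the membrane-anchored inhibitor of metalloproteases (8.41 ± 1.88 and 13.1 ± 1.29 CPM, a log2 change of 0.64, SE 0.16, adjusted p = 0.0109), Plau, the urokinase plasminogen activator (36.7 ± 6.45 and 49.4 ± 3.62 CPM, a log2 change of 0.43, SE 0.12, adjusted p = 0.0192), and Serpinb2, an inhibitor of urokinase, which did not pass (0.248 ± 0.110 and 0.651 ± 0.331 CPM, a log2 change of 1.37, SE 0.51, adjusted p = 0.0597). Plasminogen itself (Plg) had no count. Of 15 tested ADAM and ADAMTS-like relatives 4 rose and 0 fell in edgeR (0 lower at an unadjusted p under 0.05, 0 in DESeq2 and 0 in limma voom), with a median of 0.19. The smallest p was that of Adam8, a protease of leukocytes (83.7 ± 7.05 and 197 ± 16.2 CPM, a log2 change of 1.24, SE 0.09, adjusted p = 4.69e-06), followed by Adam17, the shedding enzyme of tumor necrosis factor (84.0 ± 5.82 and 122 ± 13.95 CPM, a log2 change of 0.54, SE 0.09, adjusted p = 0.00130), Adamtsl5, a relative without a protease domain (30.1 ± 5.86 and 43.5 ± 3.21 CPM, a log2 change of 0.53, SE 0.13, adjusted p = 0.00788), and Adam9 (131 ± 8.50 and 153 ± 8.46 CPM, a log2 change of 0.22, SE 0.08, adjusted p = 0.0463).

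Of 16 tested substrates in the matrix 9 rose, 1 fell and 6 did not pass, where 16.9% of all genes tested rose and 13.1% fell, with a median log2 fold change of 0.47. The 4 with the smallest p were Fn1, fibronectin (1116 ± 75.0 and 1999 ± 111 CPM, a log2 change of 0.84, SE 0.09, adjusted p = 4.03e-05), Dcn, decorin (305 ± 41.3 and 1041 ± 309.9 CPM, a log2 change of 1.77, SE 0.19, adjusted p = 1.28e-04), Col3a1 and Tnc, tenascin C, which fell (71.1 ± 5.79 and 43.4 ± 5.22 CPM, a log2 change of -0.71, SE 0.10, adjusted p = 3.18e-04). Without shNT tumor 1 or without shXBP1 tumor 4 the number that fell was 2. Col1a1, Col1a2, Col3a1 and Dcn are also in the fibroblast list, so this list and those markers are not separate measurements.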

How the data were processed

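Total RNA of 8 tumors was sequenced, and 4 shNT tumors were compared with 4 shXBP1 tumors by the genotype in their labels. The authors deposited 1 table with raw counts and FPKM (scaled by gene length and library size) per tumor, per the file headers, and with a DESeq2 log2 fold change and adjusted p. Per the submitters' processing notes the genome was GRCm38. Aligner, counter, strand setting and annotation: not given in the sources used here. Of the identifiers, 22022 were found in GENCODE M21, among them all 44 members.

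Counts were filtered with filterByExpr, which left 14907 genes, scaled by TMM (factors 0.980 to 1.04) and tested with edgeR's quasi-likelihood test (version 4.0.16, R 4.3.3; robust dispersions), in a two-sided way, and p-values were adjusted by Benjamini-Hochberg over all genes, with a threshold of 0.05. The SE is the log2 fold change divided by the root of the F statistic. The alternatives were DESeq2 (1.42.0), limma voom (3.58.1), other size factors and filters, non-robust dispersions, a block for the tumor number, a covariate (log2 CPM of Ptprc, prior count of 2), and leaving out each tumor. The fits were also run on simulated counts, and the outcome is not given here. Between tumors of a group, chi-square divided by its degrees of freedom was at least 16.6, so no library was repeated. Members and lists were chosen with earlier results of these data known. Per-tumor values are given for called members whose higher group averaged 1 CPM or more, every Timp and the 5 highest by FPKM. Up to 4 genes of each related list, those of smallest p, are given with mean and SD. Acan, Vcan, Furin, Plg, Tmem198b, Chchd10, single markers and the per-tumor values of Mmp3 were chosen after their values were seen. Floors of 3 counts cover counting error only. Sequences are from RefSeq (GRCm38.p6).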

Additional observations from a re-analysis of the deposited data

Results flagged for a closer look

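In 56 checks of a tested member within a group of 4 tumors, 2 values lay far from the other 3, and chance alone gives about 1 in 20. Mmp12 was at 65.4 CPM in shXBP1 tumor 3, below the other shXBP1 tumors (99.5 to 105 CPM). Timp3 was at 272 CPM in shNT tumor 3, below the other shNT tumors (349 to 363 CPM). Without that tumor the log2 fold change of Mmp12 was -0.05 (edgeR, adjusted p = 0.773) and that of Timp3 was 0.15 (adjusted p = 0.375).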

How the results depend on the processing

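With DESeq2, limma voom, other size factors, other filters, no robust estimation or the block, the number of members that rose was 9 to 11 and that fell 2 or 3. Leaving out 1 tumor gave 8 to 11 that rose and 1 to 3 that fell, the lowest without shXBP1 tumor 2 or 3, where the calls of Mmp11 and Mmp13 were lost. With the Ptprc covariate 2 members rose and 0 fell, and Mmp11 changed sign (0.32). The covariate gave 1 higher in each of the 4 related lists (proteolysis control, ADAM relatives, matrix substrates, AP-1, ETS and RUNX factors), and 0 matrix substrates and 0 of those factors lower. Over all genes it called 134 higher and 106 lower, against 2517 and 1958. The cause was not tested. DESeq2 called 2 matrix substrates lower. Leaving out 1 tumor gave 2 to 4 higher and 0 to 1 lower for proteolysis control, 3 to 4 higher and 0 lower for ADAM relatives, 7 to 9 higher and 1 to 2 lower for matrix substrates, and 4 to 6 higher and 2 lower for the factors. Same-numbered tumors did not deviate together (correlations -0.14 to -0.02), so no pairing by number was seen. A weak pairing, or one that touches few genes, would not show in these correlations. With the number as a block 9 members rose and 3 fell, Mmp3 passed (1.39, edgeR, adjusted p = 0.00802) and Adamts10 did not (0.0580), and over all genes 2040 were higher and 1304 lower. Without shNT tumor 3 the latter was 1303. Low counts limit Adamts8, Adamts13, Mmp3, Mmp10 and Mmp25, and differences in the 16 members below the filter were not detectable at this depth.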
